A study of Mus musculus with 12 samples.

Results

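The nuclear genes of oxidative phosphorylation encode most subunits of the mitochondrial respiratory chain and of the ATP synthase. They were taken by their symbols on the array: Ndufa, Ndufb, Ndufc, Ndufs or Ndufv followed by a number (complex I), Sdha to Sdhd (complex II), Uqcr (complex III), the subunits Cox4 to Cox8 (complex IV) and Atp5 (complex V). The array carried 78 such symbols, and 72 had a probe with a detection p-value under 0.05 on at least 3 of 12 arrays, among 12379 named genes that passed the same filter. By complex, 34 of 35 symbols of complex I passed, 3 of 4 of complex II, 6 of 7 of complex III, 13 of 16 of complex IV and 16 of 16 of complex V. The 6 that did not pass were Cox6a2, Cox7b2, Cox8c, Ndufs1, Sdha and Uqcrfs1. Cox7c, Cox8a, Atp5g1, Uqcrb, Ndufs5, Ndufa4l2 and Ndufb1 had no probe under that symbol and were not analysed here. One member, Ndufs5-ps, carries a pseudogene's symbol and its signal may be shared with the parent gene.

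The tissue was choroid plexus (CP), whose epithelium secretes cerebrospinal fluid into the brain ventricles. Tumors of the hindbrain CP came from mice with the genotype Math1-cre;Rosa26-NICD1, in which Cre driven by the Math1 promoter switches on the active intracellular part of Notch1 in cells of the Math1 lineage, and controls were CP of wild-type mice. All animals had a C57BL/6 background, and tissue was taken at birth (P0) or at postnatal day 21 (P21). Each of the 4 groups had 3 arrays, and each array measured RNA pooled from several animals of one genotype, so the spread between arrays is that between pools and may be partly technical.

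In the inner mitochondrial membrane, complexes I and II pass electrons from NADH and succinate to ubiquinone, complex III hands them to cytochrome c, and complex IV transfers them to oxygen. Complexes I, III and IV pump protons in doing so, and complex V, the ATP synthase, lets the protons flow back to make ATP. CP epithelium is rich in mitochondria, which serve the active ion transport behind fluid secretion.

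Illumina BeadChips with 45281 probes gave a bead intensity and a detection p-value per probe, and 19043 to 23632 probes were detected per array. Values below are log2 intensities after background correction and quantile normalization, 1 unit being a doubling, and each gene is represented by its brightest probe. Levels of different probes are not compared. One BeadChip carried the 6 P0 samples and a second the 6 P21 samples, and each held tumors at positions A to C and wild-type CP at D to F, so chip cannot be told apart from age, nor position from genotype. Averaged over the remaining replicates, Pearson correlation within a group came to 0.946 for P0 wild-type array 1 (0.960 and 0.968 for the others), 0.949 for P21 tumor array 1 (0.972 and 0.964) and 0.961 for P0 tumor array 2 (0.970 and 0.978), while the P21 wild-type arrays were at 0.990 or more. These 3 arrays also had the lowest quality weights in limma (0.221, 0.387 and 0.219). Of 10 CP epithelial markers 7 were detected, among them Ttr (transthyretin), whose mean level lay between 15.91 and 16.03 in every group and differed by -0.04 between tumor and wild type at P0 and by -0.11 at P21, close to the top of the scale, where differences can be hidden. Enpp2, Kcnj13 and Slc4a5 were not detected or had no probe under that symbol.

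The members varied together from array to array, and in 3 of the 4 groups by more than the groups differed. Each member's deviation from its own mean over the 12 arrays, averaged over the 72 members, was 0.69, -0.47 and -0.05 log2 units in P0 wild-type arrays 1, 2 and 3. In P0 tumor arrays it was 0.33, -0.79 and -0.13. In P21 wild-type arrays it was 0.42, 0.43 and 0.22, and in P21 tumor arrays -0.51, -0.35 and 0.21. The P0 groups overlapped over most of their range, while at P21 the highest tumor array lay just under the lowest wild-type array. Array 1 was the highest of its group for 58 members in P0 wild type and for 59 in P0 tumors, and array 2 the lowest for 58 and 63 members. In P21 tumors array 3 was the highest for 64 members and array 1 the lowest for 52. P0 tumor array 2 was above the member's own mean for only 1 of 72 members, and P21 wild-type array 1 for 70.

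The typical spread between arrays of a group was wider for the members than for genes at large. The median within-group SD was 0.53 log2 units over the 72 members and 0.32 over all 12379 genes. It was 0.60 for complex I, 0.46 for complex V, 0.52 for complex IV, 0.40 for complex II and 0.37 for complex III. Both lists of ribosomal proteins were close to these values, with 0.45 for cytosolic and 0.45 for mitochondrial ribosomal proteins, while enzymes of the tricarboxylic acid (TCA) cycle, which feeds electrons into the chain, had 0.19. Among members the SD ran from 0.12 for Atp5b, the catalytic beta subunit of ATP synthase, to 0.83 for Atp5g2, one of the genes for its c ring. The steadiest after Atp5b were Atp5g3 (0.17), Ndufv1 (0.18), Ndufa10 (0.19), Uqcrc2 (0.19) and Uqcrc1 (0.21). Atp5b read 15.60 to 16.03 on the 12 arrays, near the top of the scale, where spread can be hidden.

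**Figure D1:**
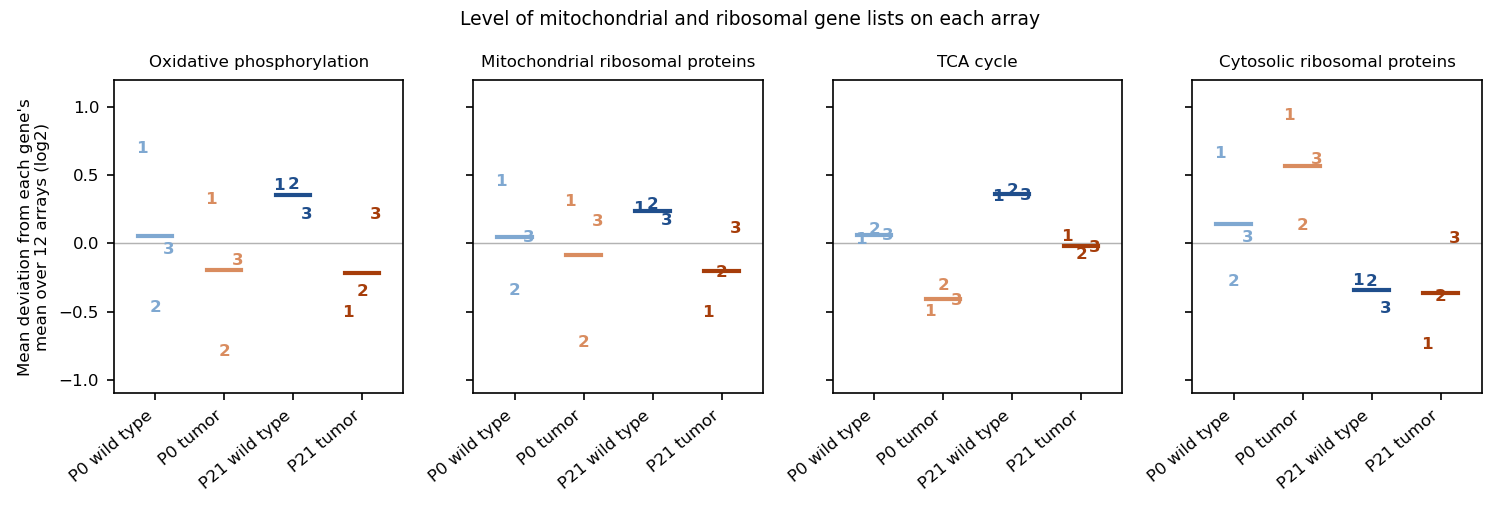
Mean log2 deviation from each gene's own mean over the 12 arrays (vertical axis) for 4 gene lists, with each numeral marking the array of that replicate number and each bar a group mean over 3 arrays. The members of oxidative phosphorylation span -0.79 to 0.33 in P0 tumors and -0.47 to 0.69 in P0 wild type, and lie higher in each P21 wild-type array (0.22 to 0.43) than in any P21 tumor array (-0.51 to 0.21).

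Other lists shared the array pattern in part. Cytosolic ribosomal proteins were at 0.94, 0.13 and 0.62 in P0 tumor arrays 1 to 3 and at 0.66, -0.28 and 0.04 in P0 wild type, so array 1 was the highest and array 2 the lowest in both groups, as for the members. In P21 tumors they were at -0.74, -0.39 and 0.04, again with array 1 lowest and array 3 highest. TCA cycle genes did not share it: they were at -0.50, -0.31 and -0.42 in P0 tumors, 0.03, 0.10 and 0.06 in P0 wild type, 0.06, -0.08 and -0.03 in P21 tumors and 0.35, 0.39 and 0.35 in P21 wild type. What makes arrays of a group differ in these lists was not tested.

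**Figure D2:**
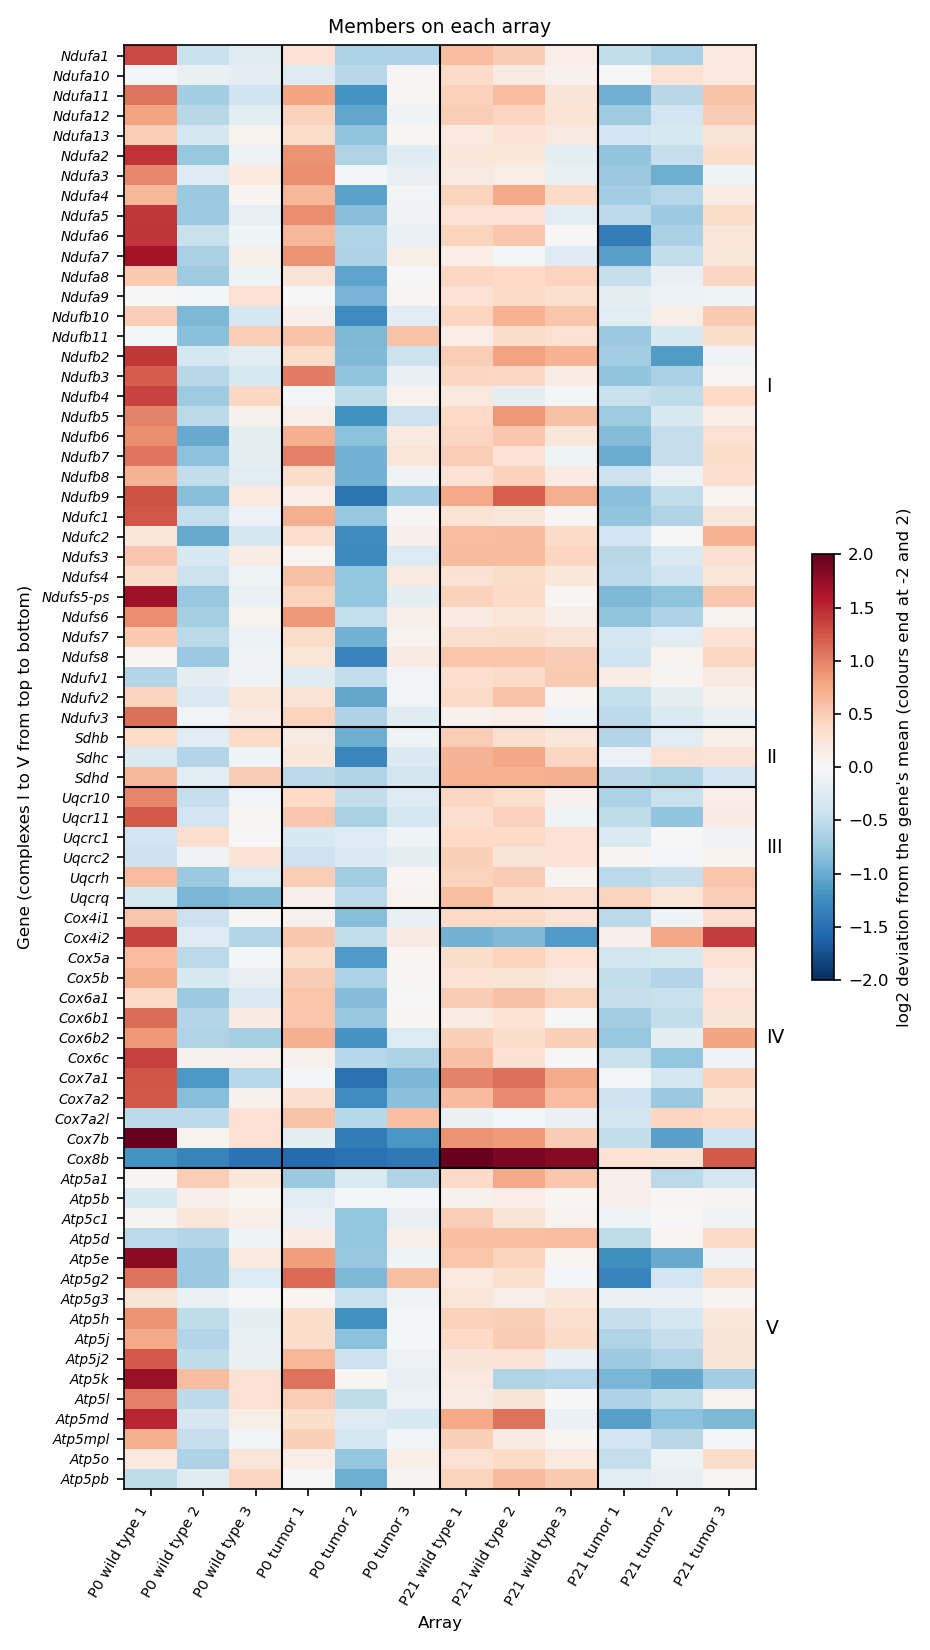
Log2 deviation of each of the 72 members (rows, grouped into complexes I to V) from its own mean, on each of the 12 arrays (columns), with red above and blue below the mean and colours ending at -2 and 2. P0 wild-type array 1 is red for most rows and P0 tumor array 2 blue for most, P21 wild-type arrays are red for most rows, and Cox8b and Cox4i2 show patterns of their own.

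The P0 comparison asked how newborn tumors differed from CP of the same age. No member rose and 3 fell: Sdhd, Cox7b and Atp5a1 (limma, Benjamini-Hochberg adjusted p under 0.05 over all 12379 genes). At that threshold 5% of all genes rose and 6.28% fell, 11.3% in all. At an unadjusted p under 0.05, 1 member was higher and 5 were lower, against 10.5% and 14.7% of all genes. The difference was below 0 for 59 members and above 0 for 13, with a median of -0.20 log2 units beside -0.06 over all genes. The 3 tumor arrays lay entirely below the 3 wild-type arrays for 4 members (Sdhd, Cox7b, Atp5a1 and Atp5c1, the gamma subunit of ATP synthase) and above them for 0, against 14.4% and 10.4% of all genes. The median turned with single arrays: it was 0.11 without P0 tumor array 2, 0.12 without P0 wild-type array 1, -0.48 without P0 wild-type array 2 and -0.54 without P0 tumor array 1. In the same arrays all 8 detected markers of dividing cells rose (median 2.56, summed signal of tumor arrays 15899.5 to 17114, of wild-type arrays 2117.9 to 2986.6), and the CP epithelial markers summed to 151827.5 to 200376.9 and 181105.8 to 254573.9. Of 8 markers of multiciliated cells 3 fell at P0 (sums 11038.6 to 13537.4 and 17103.7 to 23144.3). The part of these lists in the result was not tested.

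At P0 arrays with the same replicate number deviated together, and numbers were therefore also compared as pairs. The median member difference was -0.28 in pair 1, -0.31 in pair 2 and -0.04 in pair 3. The tumor array was the lower one in all 3 pairs for 27 members (37.5%, beside 25.9% of all genes) and the higher one in all 3 for 1, Uqcrq (1.39%, beside 20.1%). With the replicate number as a block 3 members fell, Sdhd (adjusted p = 0.0371), Cox7b (0.00458) and Ndufb9, an accessory subunit of complex I (-0.88 ± 0.24, SE, 0.0484), and Atp5a1 did not pass (0.0531), where 6.1% of all genes fell. That fit holds all 12 arrays; with the block on the 6 P0 arrays alone, Cox7b (0.0013), Ndufb9 (0.0416) and Cox6c (-0.88 ± 0.25, 0.0446) fell, against 5.62% of all genes, and Sdhd (0.0633) and Atp5a1 (0.0546) did not pass. Uqcrq, a small subunit of complex III, was 0.45, 0.37 and 0.92 higher in the tumors of the 3 pairs and did not pass (0.58 ± 0.23 without pairs, adjusted p = 0.125). A second probe of Uqcrq, detected on only 3 of the 12 arrays, went the other way at P0 (-0.27, limma, unadjusted p = 0.171).

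The P21 comparison asked the same of tumors and CP at weaning age. The difference was below 0 for 70 of 72 members, with a median of -0.54 log2 units beside -0.05 over all genes, and by complex the median ran from -0.49 (complex III) to -0.58 (complexes II and V). All 34 members of complex I, 3 of complex II, 6 of complex III and 16 of complex V were below 0, and the exceptions, Cox4i2 and Cox7a2l, belong to complex IV. Few members passed the test by themselves: 4 fell (Sdhd, Cox8b, Atp5a1 and Atp5md), against 7.44% of all genes, and 1 rose (Cox4i2), against 10.5% (17.9% in either direction). At an unadjusted p under 0.05, 12 were lower and 1 higher, against 14% and 15.5% of all genes. The tumor arrays lay entirely below the wild-type arrays for 35 members (12 of complex I, 3 of II, 2 of III, 7 of IV and 11 of V) and above for 1, against 23.9% and 21.1% of all genes. The median stayed between -0.38 and -0.78 when any single array was left out, and between -0.49 and -0.55 with cyclic loess, median scaling or the authors' normalized values. How many fell depended on the spread used: 16 with only the 6 P21 arrays fitted, against 12.7% of all genes, and 35 with arrays weighted by quality, against 19.9%.

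Several cell type lists moved with the P21 difference. The summed linear signal of the 7 detected CP epithelial markers was 191356 to 200641.9 in P21 tumors and 249565.6 to 253732.1 in wild type, and 2 of the 7 fell, the water channel Aqp1 (-2.21) and the folate receptor Folr1 (-0.74). Of 6 astrocyte markers 4 rose and 1 fell, and the sum of all 6 was 18031.9 to 57711 in tumors against 6144.4 to 7437.4. Of 7 detected macrophage markers 4 rose (sum 4983.8 to 8414.1 against 2752.6 to 2783.2), and of 7 fibroblast markers 3 rose and 1 fell (24863.1 to 31582.5 against 24123.9 to 26870.6). Of 8 detected markers of multiciliated cells 3 fell, and their sum was 12615.9 to 15828.7 in P21 tumors against 19928.3 to 24583. Of 8 markers of dividing cells 3 rose (1322.5 to 1828.4 against 816.3 to 915.5). P21 tumor array 1 held the top values for neuronal (27242.9, all other arrays 1125.4 to 2535.8), astrocytic (57711) and oligodendrocytic (8674.8) markers. Without that array the median member difference at P21 was -0.38, and 3 members fell. In bulk tissue fewer cells of a type and less RNA per cell cannot be told apart, and the part of these cells in the result was not tested.

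**Figure D3:**
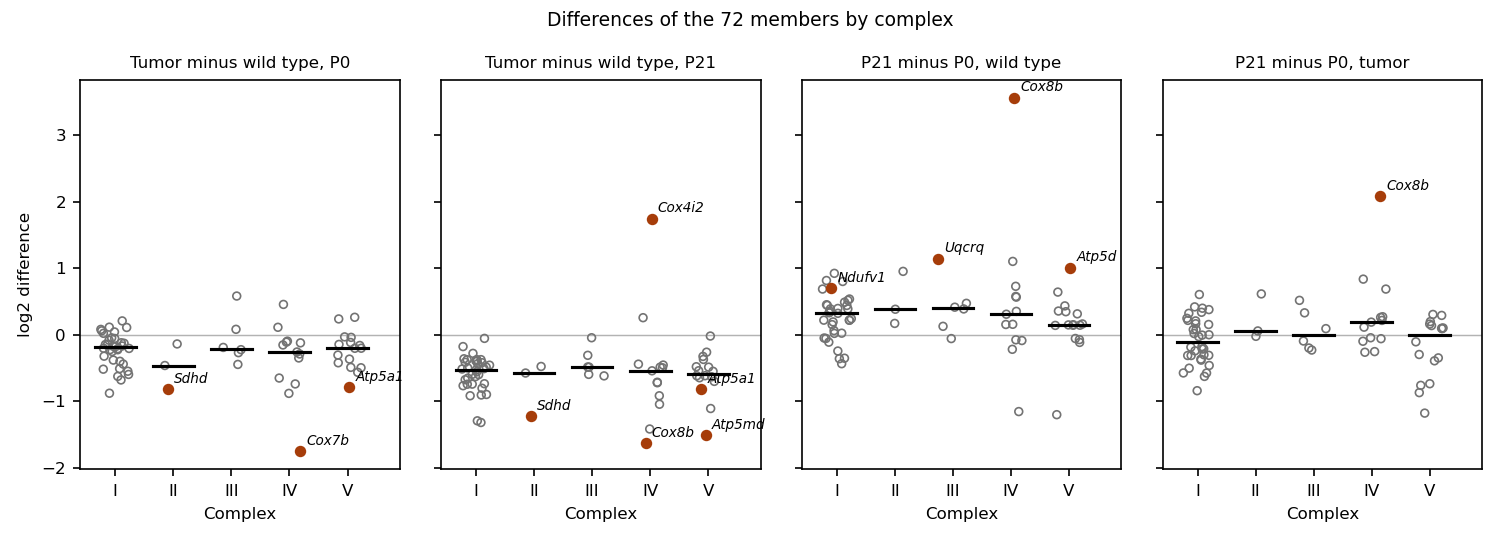
Log2 difference of each of the 72 members (points) by complex, for tumor minus wild type at P0 and P21 and for P21 minus P0 in wild type and in tumors, with filled named points for members past an adjusted p of 0.05 and bars for the median of each complex. All complexes have medians below 0 at P21 (-0.58 to -0.49), and the points of Cox4i2 at P21 and of Cox8b with age rest on a group below background, so that only bounds hold for them (at least 2.09-fold for Cox4i2, at least 5.83-fold for Cox8b in wild type and 2.06-fold in tumors).

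Complex II, succinate dehydrogenase, is the only complex of the chain whose subunits are all encoded in the nucleus. Sdhd, one of its membrane anchors, read 10.06, 9.19 and 9.90 in P0 wild type and 8.87, 8.80 and 9.04 in P0 tumors. At P21 it read 10.10, 10.09 and 10.11 in wild type and 8.85, 8.76 and 9.02 in tumors. Every tumor array was below every wild-type array at both ages, and the P21 wild-type arrays hardly differed. Sdhd fell by 0.82 ± 0.22 log2 units in newborn tumors (SE, 3 arrays in each group, adjusted p = 0.0326) and by 1.22 ± 0.22 at P21 (adjusted p = 0.00194, 2.33-fold lower); each SE here and below rests on the spread pooled over all 4 groups. The P21 call held without any one array, whereas the P0 call ended without any of 8 arrays (all 3 P0 tumors, P0 wild type 1 or 3, all 3 P21 wild type, adjusted p 0.0523 to 0.108) and with only the 6 P0 arrays (0.165). The other anchor, Sdhc, differed by -0.14 at P0 and -0.48 at P21, and the iron-sulfur subunit Sdhb by -0.46 and -0.58, none of them past the threshold, though at P21 the groups did not overlap for either.

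Complex IV, cytochrome c oxidase, held the members with the widest differences. Cox7b, a small structural subunit, read 8.60, 6.54 and 6.78 in P0 wild type and 6.28, 5.07 and 5.30 in P0 tumors. It was detected on all 3 wild-type arrays and on 1 tumor array, and the groups did not overlap. It fell by 1.75 ± 0.47 at P0 (adjusted p = 0.033); the call ended without P0 tumor 2 or 3, P0 wild type 1 or P21 wild type 1 or 2 (0.0501 to 0.114), and without P0 wild type 1 the difference was -1.11. With no background correction it was -0.88 (0.0686), and with the authors' values -0.95 (0.0548). At P21 it read 7.37, 7.33 and 6.98 in wild type and 5.97, 5.38 and 6.07 in tumors, a difference of -1.42 ± 0.47 that missed the threshold (0.0585) with groups that did not overlap.

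Cox8b encodes an isoform of the smallest nuclear subunit that is known in the mouse mainly from heart and skeletal muscle and from brown fat. It was not detected on any of the 6 P0 arrays. At P21 it read 9.09, 7.99 and 7.93 in wild type and 6.39, 6.38 and 7.34 in tumors, detected on all 6 arrays with no overlap. It fell in P21 tumors by 1.63 ± 0.32 (adjusted p = 0.00363, 3.09-fold lower), and the call held without any one array. The widespread isoform Cox8a had no probe under that symbol, so the balance of the isoforms could not be read. Of 10 skeletal muscle markers Ckm, Acta1, Myh1, Myh4 and Tnni2 were not detected or had no probe under that symbol; the 5 detected summed to 1138.7 to 1459.1 in P21 wild type and 666.7 to 6663.4 in P21 tumors, the highest in tumor array 1. Of these 5, 3 were above and 2 below 0 at P21, with a median difference of 0.19, and 1, the light chain Myl1, passed the test (-1.03, adjusted p = 0.0059). The 3 detected heart markers of 8 summed to 138.8 to 157.8 and 94 to 142.1, and 1 of the 3 fell. The 2 detected brown fat markers of 6 summed to 362.2 to 590.2 and 324.3 to 459.8. Of these 2, 1 rose in P21 tumors (1.25), and the other was at -0.70 and did not pass. Elovl3, Fabp4, Adipoq and Plin1 were not detected or had no probe. The part of such cells in the Cox8b signal was not tested.

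Cox4i2 encodes the isoform of subunit IV that is known from lung and from cells under low oxygen. It read 7.40, 5.80 and 5.46 in P0 wild type and 6.59, 5.56 and 6.22 in P0 tumors, with 2 arrays detected in each group and wide overlap. At P21 it was not detected on any wild-type array (5.10, 5.17 and 4.92) and was detected on all 3 tumor arrays (6.16, 6.82 and 7.45). It was at least 2.09-fold higher in P21 tumors (bound against the lowest detected signal of each wild-type array, adjusted p of the fit 0.0205). The call ended without P21 tumor 2 or 3 or any one P21 wild-type array (0.0556 to 0.0785). The common isoform Cox4i1 differed by -0.35 at P0 and -0.44 at P21 and did not pass. Pericytes and smooth muscle are cells in which Cox4i2 is also known. Their markers summed to 13559.5 to 26712.9 in P21 tumors and 2946.2 to 5206.7 in wild type. Of 8 detected, 4 were above and 4 below 0, with a median difference of 0.17. Smooth muscle actin Acta2 (3.02, adjusted p = 0.000238) and Tagln (1.66, 0.00669) rose and Abcc9 fell (-1.098). The part of these cells in the result was not tested.

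**Figure D4:**
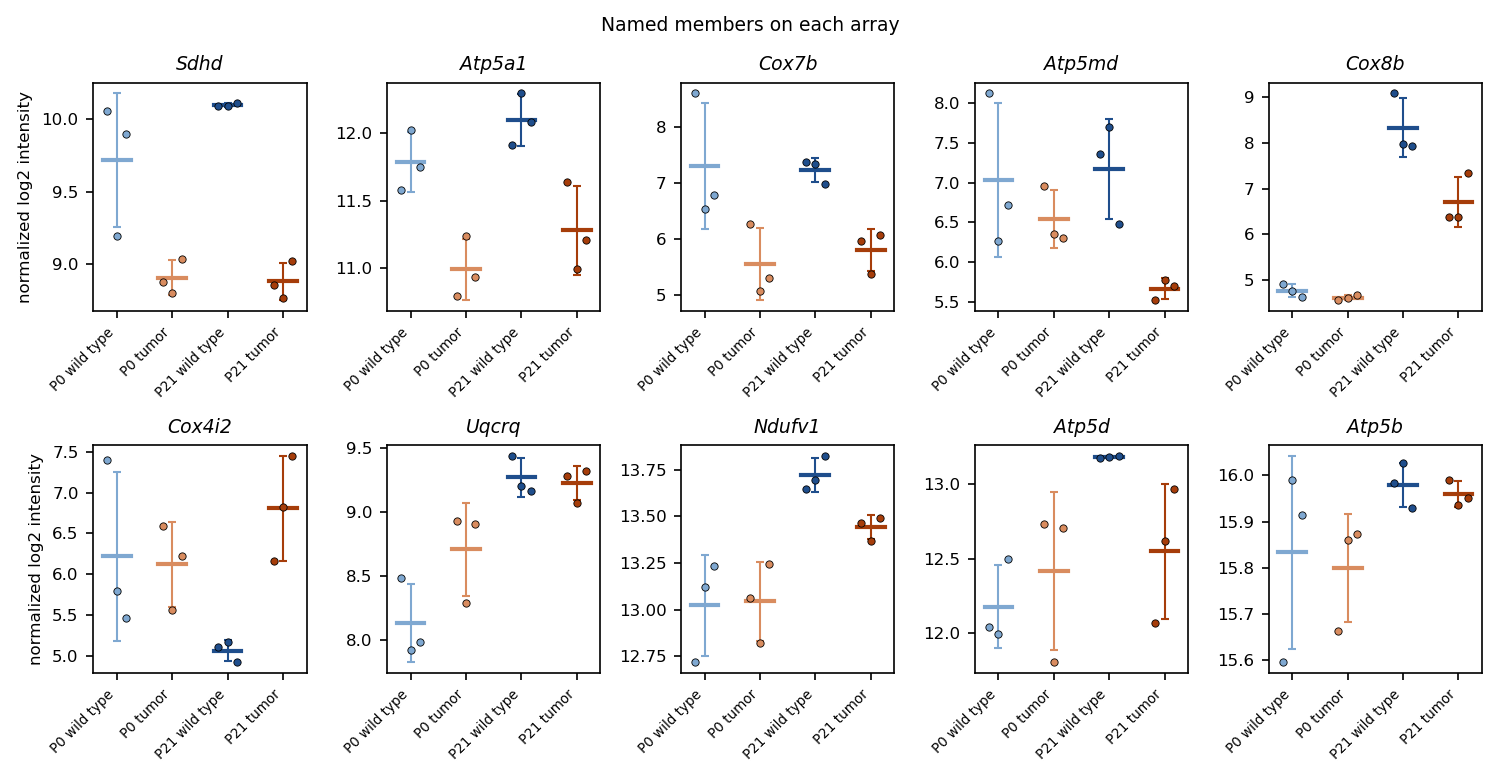
Normalized log2 intensity of 10 members on each array (points) in the 4 groups, with group means (bars) and SD over 3 arrays (whiskers), each panel on its own scale. Sdhd is at 8.76 to 9.04 on all tumor arrays and at 9.19 or more on all wild-type arrays, Cox8b is near 5 at P0 and above 6 at P21, and Cox4i2 is lowest in P21 wild type.

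The remaining isoform groups of complex IV moved less. Cox7a1, the muscle isoform of subunit VIIa, differed by -0.65 at P0 and -0.92 at P21, and the common Cox7a2 by -0.74 and -1.05. Cox7a2l, a relative of these isoforms, was one of the 2 members above 0 at P21 (0.25, and 0.45 at P0). Cox6a1 differed by 0.11 and -0.71, Cox6b1 by -0.29 and -0.46, and Cox6b2, the isoform known from testis, by -0.11 and -0.49. None of these 6 passed at either age.

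In complex V the catalytic head and a membrane subunit carried the calls. Atp5a1, the alpha subunit of the head, read 11.58, 12.02 and 11.75 in P0 wild type and 10.80, 11.24 and 10.93 in P0 tumors. At P21 it read 11.91, 12.30 and 12.08 in wild type and 11.64, 10.99 and 11.21 in tumors, without overlap at either age. The fall was 0.79 ± 0.22 at P0 (adjusted p = 0.0373) and 0.82 ± 0.22 at P21 (0.0217). A second probe of the gene, detected on all arrays, gave 0.05 at P0 and -0.47 at P21 (unadjusted p = 0.912 and 0.324), and with the mean of both probes neither age passed (adjusted p = 0.343 and 0.0702). The P0 call also ended without any of 8 single arrays (P0 tumor 1 or 3, P0 wild type 2 or 3, P21 tumor 3 and all 3 P21 wild type, 0.0519 to 0.117) and with cyclic loess (0.0539), and the P21 call without P21 tumor 2 or 3 or P21 wild type 2 or 3 (0.0608 to 0.106). Its partner in the head, Atp5b, differed by -0.03 and -0.02, within the spread of its groups and near the top of the scale.

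Atp5md, a small membrane subunit of the ATP synthase (also called DAPIT), read 7.36, 7.70 and 6.48 in P21 wild type and 5.52, 5.78 and 5.70 in P21 tumors. The tumor arrays were close together and all lower, and the fall was 1.51 ± 0.43 (adjusted p = 0.0282, 2.85-fold). At P0 it differed by -0.50 ± 0.43 (0.516) with overlap. The P21 call ended without any one P21 tumor array or P21 wild type 1 or 2 (highest adjusted p 0.127), with no background correction (-0.71, 0.077) and with the authors' values (-0.78, 0.0587). The c ring genes Atp5g2 (-0.62) and Atp5g3 (-0.26), the stalk subunits Atp5c1 (-0.33), Atp5d (-0.63) and Atp5e (-1.11) and the peripheral stalk subunit Atp5pb (-0.65) did not pass at P21. A second probe of Atp5pb gave -1.26 at P0 and -1.20 at P21 (unadjusted p = 0.000394 and 0.000582), further than the brightest probe (-0.20 and -0.65), and another gave -0.05 and -0.64.

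In the main fit, on each gene's brightest probe, no member of complex I or III passed in either tumor comparison. With the replicate block Ndufb9 did at P0, and some other fits called more members, as counted at the end. A second probe of Ndufb8, detected on all arrays, gave -0.70 at P0 and -0.86 at P21 (limma, unadjusted p = 0.00102 and 0.000183). That was further than its brightest probe (-0.21 and -0.38). Some core subunits of complex I carry the flavin or iron-sulfur clusters. Among the detected core subunits the P21 difference was -0.74 for Ndufs3, -0.40 for Ndufs7, -0.51 for Ndufs8, -0.28 for Ndufv1 and -0.52 for Ndufv2. Their median was -0.51, and 3 of the 5 did not overlap. At P0 the same 5 ran from -0.63 (Ndufs3) to 0.02 (Ndufv1). The 29 accessory subunits had a P21 median of -0.56, and the widest were Ndufb9 (-1.32 ± 0.50, adjusted p = 0.0906) and Ndufb2 (-1.29 ± 0.45, 0.069), both without overlap. Ndufa4, named for complex I and later found in complex IV, differed by -0.15 at P0 and -0.90 at P21. In complex III the core proteins Uqcrc1 (-0.19 and -0.49) and Uqcrc2 (-0.23 and -0.31) did not overlap at P21.

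The tumor differences at P21 and P0 were compared directly. No member's difference changed with age past the threshold, in either direction (limma; 1 higher and 1 lower at an unadjusted p under 0.05), where 3.13% of all genes had a higher and 1.3% a lower tumor effect at P21 (4.43% together). The change was below 0 for 63 of 72 members, with a median of -0.30 beside 0.02 over all genes, and this median lay between -0.70 and -0.02 when single arrays were left out (-0.70 without P0 wild type 1, -0.62 without P0 tumor 2, -0.50 without P21 tumor 3, -0.14 without P21 tumor 1, -0.03 without P0 tumor 1 and -0.02 without P0 wild type 2). For Cox8b, not detected at P0, and Cox4i2, not detected in P21 wild type, a size of this change cannot be given.

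From P0 to P21 wild-type CP gained in 4 members and lost in none: Cox8b, Uqcrq, Atp5d and Ndufv1 rose. Over all genes 7.38% rose and 13% fell, 20.3% in all. At an unadjusted p under 0.05, 7 members were higher and 2 lower, against 13.3% and 19.7% of all genes. The difference was above 0 for 56 members, the median was 0.31 beside -0.05 over all genes, and the groups did not overlap for 11 higher and 2 lower members (17.4% and 24.8% of all genes). The median was 0.07 without P0 wild type 2 and 0.56 without P0 wild type 1. Each of these values compares BeadChips as well as ages.

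Cox8b, not detected on the P0 arrays, was at least 5.83-fold higher in P21 wild type (adjusted p of the fit 1.97e-05) and at least 2.06-fold higher in P21 tumors (0.000615), the one member to pass in tumors. Uqcrq read 8.48, 7.92 and 7.98 at P0 and 9.44, 9.20 and 9.16 at P21 in wild type, a rise of 1.14 ± 0.23 (0.0037) with no overlap. Its second probe, detected on only 3 of the 12 arrays, rose by 0.40 (limma, unadjusted p = 0.0503). Atp5d, the delta subunit in the rotating stalk of the ATP synthase, read 12.04 on array 1, slightly less on array 2 and 12.50 on array 3 at P0, and 13.18, 13.18 and 13.19 at P21. Its rise of 1.01 ± 0.29 (0.0275) lost its call without P0 wild type 1 or 2 or any one P21 wild-type array (0.0696 to 0.0787). The call of Atp5d also ended with the replicate number as a block (0.055). Ndufv1, which binds NADH and flavin in complex I, read 12.72, 13.12 and 13.23 at P0 and 13.64, 13.70 and 13.83 at P21. Its rise of 0.70 ± 0.19 (0.0214) lost its call without P0 wild type 1 or any one P21 wild-type array (0.053 to 0.084). The block ended the call of Ndufv1 as well (0.0614).

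In tumors the members had differences on both sides of 0 from P0 to P21: 35 differences were above and 37 below 0, with a median of -0.0043 beside -0.03 over all genes. Cox8b rose and none fell, while 9.94% of all genes rose and 10.3% fell, 20.2% in all. The groups did not overlap for 6 higher members (Ndufv1, Uqcrc2, Uqcrq, Cox8b, Atp5b and Atp5c1) and for 2 lower ones (Atp5k and Atp5md), against 17.2% and 19.5% of all genes. At an unadjusted p under 0.05, 3 members were higher and 2 lower, against 15.9% and 16.9% of all genes. The median was -0.32 without P0 tumor 2, 0.19 without P0 tumor 1, 0.09 without P0 tumor 3, 0.12, 0.07 and -0.22 without P21 tumor 1, 2 and 3, and 0.10 with median scaling. Atp5k, the e subunit of the ATP synthase, was the lowest with age in both genotypes (-1.20 ± 0.40 in wild type, adjusted p = 0.0506, and -1.18 ± 0.40 in tumors, 0.0549), and neither passed. Cytosolic ribosomal proteins, in the same arrays, had 1 member rise and 20 fall of 53 with age in tumors, with a median of -1.04.

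Related mitochondrial lists were read in the same fits. Over all genes 5% rose and 6.28% fell in tumors at P0, and 10.5% rose and 7.44% fell at P21. The medians over all genes were -0.06 and -0.05. With age 7.38% rose in wild type and 9.94% in tumors. Of 11 TCA cycle enzymes 2 fell at each age, Dld (-1.36 ± 0.28 at P0, adjusted p = 0.00922, and -0.91 at P21, 0.043), a subunit shared by the oxoacid dehydrogenase complexes, and Ogdh, the first enzyme of the oxoglutarate dehydrogenase complex (-0.86, 0.0202, and -0.66, 0.0475), with list medians of -0.34 and -0.48. Of 43 assembly factors none rose or fell at P0, and 3 fell at P21: Lyrm7 (-0.82, 0.0157) and Bcs1l (-0.65, 0.0209), which insert the iron-sulfur protein of complex III, and Tmem126b (-0.79, 0.0126), an assembly factor of complex I (median -0.42). Mitochondrial ribosomal proteins had 1 of 73 fall at P0 and 3 at P21 (medians -0.10 and -0.44), and none rose. The adenine nucleotide carrier Slc25a5, which exchanges ADP for ATP, fell at both ages (-0.70, 0.0194, and -0.73, 0.00918) as the one passing gene of 13 for import and carriers. Of 8 detected subunits encoded in mitochondrial DNA, ATP6 (-0.70, 0.0262) and COX2 (-0.85, 0.024) fell at P0 and none passed at P21. Of 5 electron carriers and the ATP synthase inhibitor none passed in a tumor comparison, and cytochrome c, Cycs, rose with age in wild type (1.29, 0.00465) and in tumors (0.99, 0.0193). Cytosolic ribosomal proteins had 1 of 53 fall at P0 (median 0.47) and 1 rise at P21 (median 0.04).

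Regulators of mitochondrial biogenesis moved one by one. Of 12 tested, Tfb1m, which methylates the mitochondrial ribosomal RNA, fell at P0 (-0.89 ± 0.25, adjusted p = 0.0409). At P21 the nuclear receptor Esrra fell (-0.995 ± 0.25, 0.0163), and the coactivator Ppargc1b rose (1.00 ± 0.30, 0.0389). With age in wild type Esrra (1.79, 0.000464) and its coactivator Ppargc1a (1.76, 0.00566) rose, and in tumors Esrra (0.83, 0.0372) and Ppargc1b (1.00, 0.0357) rose while Pprc1 (-1.37, 0.000132) and Nrf1 (-0.83, 0.00953) fell. The tumor effect on Pprc1 was lower at P21 than at P0 (-1.07, 0.0252). Nrf1 (0.65, 0.0506, at P0 and 0.32 at P21), Gabpa (-0.26 and -0.18) and Tfam, which packs and transcribes mitochondrial DNA (0.15 and 0.00), did not pass in a tumor comparison.

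NRF1 and GABPA are transcription factors known to bind promoters of these genes, and the promoters of the members are shown for that reason. RefSeq promoters of assembly GRCm38.p6, 300 bases from 250 before to 50 after a gene's start, were at hand for 61 of the 72 members (66 promoters). The consensus motif of NRF1 was found on either strand in 24.2% of them and in 4.6% of all 32851 promoters, and the ETS motif CCGGAAG, bound by GABPA and its relatives, in 24.2% and 8.86%. Both were found in 6.06% and 0.892%, and at least one in 42.4% and 12.6%. All promoters cover 27025 genes, more than the 12379 tested, whereas every member had passed the detection filter. The shares thus do not compare members with other detected genes. The 250 bases before the start follow for 4 members with calls, with motif matches in capitals and the rest in lower case, each read 5′ to 3′ on the gene's strand. They are Sdhd at chr9:50603850-50604099 (minus strand), Cox7b at chrX:106015450-106015699 (plus), Atp5md at chr19:47090648-47090897 (minus) and Cox8b at chr7:140900447-140900696 (minus).
Sdhd: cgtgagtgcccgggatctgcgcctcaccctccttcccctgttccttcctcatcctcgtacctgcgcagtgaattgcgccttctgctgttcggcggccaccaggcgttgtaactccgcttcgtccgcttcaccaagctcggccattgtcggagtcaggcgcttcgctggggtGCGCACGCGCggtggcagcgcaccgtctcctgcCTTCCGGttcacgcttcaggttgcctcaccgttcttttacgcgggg
Cox7b: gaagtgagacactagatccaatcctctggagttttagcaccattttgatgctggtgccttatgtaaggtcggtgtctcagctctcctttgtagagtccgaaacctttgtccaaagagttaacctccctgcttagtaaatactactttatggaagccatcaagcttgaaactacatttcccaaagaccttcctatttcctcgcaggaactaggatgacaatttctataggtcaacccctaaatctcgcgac
Atp5md: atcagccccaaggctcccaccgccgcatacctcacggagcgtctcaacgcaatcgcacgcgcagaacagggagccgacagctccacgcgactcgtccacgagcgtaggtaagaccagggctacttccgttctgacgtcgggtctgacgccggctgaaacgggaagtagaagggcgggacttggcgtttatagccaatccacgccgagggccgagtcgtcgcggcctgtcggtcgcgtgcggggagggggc
Cox8b: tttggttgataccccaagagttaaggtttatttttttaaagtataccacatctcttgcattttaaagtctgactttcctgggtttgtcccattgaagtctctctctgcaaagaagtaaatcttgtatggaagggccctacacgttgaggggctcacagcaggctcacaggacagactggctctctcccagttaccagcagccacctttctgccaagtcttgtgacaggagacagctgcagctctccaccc
Sdhd, which fell at both ages, has an NRF1 match starting at position -79 and an ETS match starting at -46, counted from the gene's first base as 0, both on the reverse strand. Atp5md has an ETS match starting at position 2, downstream of the bases shown. Cox7b and Cox8b have neither motif in the window, which says only that these letters are not there.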

How the data were processed

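Total RNA of 12 pooled tissue samples (3 per group) was made into biotin-labelled cRNA and hybridized to Illumina arrays, per the labels' protocols. For each array and probe the authors deposited a linear average bead intensity, not normalized, and a detection p-value, per the file headers. The authors also deposited normalized intensities; the sources used here do not name the method. It kept each array's rank order, was linear with column medians of 153 to 153.1, and served as an alternative. The number of animals in each pool, and the scanner software, are not given there either.

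Background was corrected with normexp in limma 3.58.1 (R 4.3.3), taking the negative controls (936 values) from the detection p-values, with an offset of 16. The 12 arrays were then quantile normalized and put on the log2 scale. Of 24000 probes detected at 0.05 on at least 3 arrays, 20021 had one gene symbol, from GEO's platform annotation updated through a RefSeq table of assembly GRCm38.p6. Of the 72 members 29 had more than one probe on the platform, and 30 further probes were detected. A model with a mean for each group was fitted to the 12 arrays (lmFit, eBayes, residual df 8, prior df 4.21), and p-values were adjusted by Benjamini-Hochberg over 12379 genes within each of 5 comparisons, with a threshold of 0.05. On data simulated for the P21 comparison with 12379 genes, the fit recovered 53% of 100 genes changed by 1 log2 unit and 97% of 100 changed by 2, with 11 false calls. The simulated noise was independent for each gene, and the changed genes were picked at random. The members had a wider median SD (0.53, beside 0.32 over all genes) and varied together, so these rates do not describe them. Only 3 arrays per group limit the precision.

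The labels number the replicates 1 to 3 in every group. At P0 same-numbered arrays deviated together from their group means over all genes (r = 0.425, 0.432 and 0.104), and the blocked value is given where it changes a call. The third value is close to that of tumor 2 with wild type 3 (0.097). At P21 they did not (r = -0.08, -0.03 and -0.14).

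For a gene not detected on any array of a group, that group's level was taken per array as the lowest signal detected there, or the probe's own if higher, and the fold is a bound. The members and all lists were chosen with earlier results of these data known, and lists carry counts and medians with no test of their own. Named are passing members, all isoform groups and core subunits, members below background in a group, and up to 4 passing genes of each related list. The widest members that did not pass, and second probes, were named after their values were seen. Alternatives covered background correction, normalization, filters, the probe chosen, the arrays fitted, the block, a ribosomal protein covariate, array weights and each array left out. Centring on the members and the block within the 6 P0 arrays were added after seeing the data.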

Additional observations from a re-analysis of the deposited data

How the results depend on the processing

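Counts of members past the threshold depended on how the spread was estimated. Shares of all genes called the same way in the same fit stand in brackets. With only the groups compared in the fit, 0 members were lower in tumors at P0 (1.9%), 16 at P21 (12.7%), and 1 fell with age in tumors (7.92%). With array weights, 1 was higher (10.3%) and 3 lower (13.5%) at P0, 35 lower at P21 (19.9%), 1 higher (10.3%) and 4 lower (6.16%) for the difference of the tumor effects, 11 rose with age in wild type (13.7%) and 4 fell with age in tumors (21%), and the P0 median was 0.05. Tumor and wild-type arrays of the same number deviated together only at P0, and weakly for number 3 (r = 0.104). With the replicate number as a block, 12 were lower at P21 (8.25%), 2 rose (4.99%) and 1 fell (9.44%) with age in wild type and 1 fell with age in tumors (7.21%). Cyclic loess and median scaling each gave 1 lower with age in tumors (9.4% and 7.57%). Requiring detection on all 12 arrays leaves out Cox4i2 and Cox8b, so 0 were higher at P21 (10.3%) and 0 rose with age in tumors (10.6%). With the level of ribosomal protein genes as a covariate, 50 members were lower at P0 (16.4%, members' median -0.80) and 31 at P21 (12.7%), 1 was higher for the difference of the tumor effects (6.82%, median 0.25), 49 rose with age in wild type (12.1%, median 0.85) and 52 in tumors (14.4%, median 1.16). Under this covariate some signs turned: Atp5g2 was -0.66 at P0, Cox6b1 0.66 with age in wild type, and Cox6a1 1.09, Cox6b1 1.19, Atp5g2 1.27 and Ndufa4 1.22 with age in tumors, all past the threshold. The covariate itself differed between groups, and the cause of these shifts was not tested. With arrays centred on the members, 1 was lower at P0 (0.355%), 0 at P21 (1.01%, median -0.14), and 1 rose (1.14%) and 2 fell (6.17%) with age in wild type.

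Leaving out 1 array at a time gave 0 to 1 higher (3.13 to 5.88%) and 0 to 3 lower (3.06 to 8.58%) at P0 (members' median -0.54 to 0.12), 0 to 1 higher (7.44 to 11.9%) and 2 to 7 lower (4.44 to 9.53%) at P21 (median -0.78 to -0.38), and 0 higher (1.65 to 3.95%) and 0 to 1 lower (0.719 to 2.01%) for the difference of the tumor effects (median -0.70 to -0.02). With age in wild type 2 to 6 rose (4.48 to 8.94%) and 0 to 1 fell (8.79 to 15.2%, median 0.07 to 0.56), and in tumors 1 rose (7.06 to 11.8%) and 0 to 1 fell (6.92 to 12.8%, median -0.32 to 0.19). The calls of Cox8b with age, in wild type and in tumors, held in all 23 settings run for them. Those of Cox8b and Sdhd at P21 and of Uqcrq with age ended only with arrays centred on the members. Median scaling moved the median of all genes at P21 from -0.05 to 0.08 and the calls over all genes from 1300 higher and 921 lower to 1702 and 613, and with age in tumors from 1230 and 1271 to 1586 and 937. Centring on the members gave 222 higher and 44 lower of all genes at P0, 918 and 125 at P21, 141 and 764 with age in wild type and 80 and 11 for the difference of the tumor effects. Low signals limit Cox4i2, Cox7b, Cox8b, Ndufb4 and Atp5k, which were below background on some arrays.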
